A study of Homo sapiens with 12 samples.

Results

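The genes described here are those that encode collagens, laminins and a set of listed matrix glycoproteins and proteoglycans, taken from the deposited expression table by gene symbol. They were the symbols that begin with COL or LAM followed by the chain number, together with FN1, FBN1, FBN2, LUM, DCN, BGN, SPARC, SPARCL1, SPOCK1, SPOCK2, SMOC1, SMOC2, THBS1, THBS2, TNC, NID1, NID2, HSPG2 and AGRN. This gave 75 of 19973 genes, of which 44 were collagens, 12 were laminins and 19 were the listed glycoproteins and proteoglycans. The rule itself uses gene names and no measured value.

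Collagens are trimers of alpha chains. Fibrillar collagens form cables, collagen IV forms the sheet of the basement membrane, and collagen VI forms beaded filaments around cells. Laminins are trimers of an alpha, a beta and a gamma chain and build the other sheet of the basement membrane, which nidogens, perlecan and agrin link to collagen IV and to the cell surface. Fibronectin, tenascin and thrombospondin bind integrins, and the small proteoglycans lumican, decorin and biglycan coat collagen fibrils. In the normal prostate, a basement membrane surrounds the glands and most fibrillar collagen comes from stromal fibroblasts.

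RNA was sequenced from 12 libraries of 2 prostate cancer cell lines, 3 libraries in each of 4 groups. C4-2, which derives from LNCaP cells and grows without androgen, was infected with a lentivirus expressing ARv7 (C4-2 ARv7) or with a vector control (C4-2 control). ARv7 is a splice variant of the androgen receptor that lacks the ligand-binding domain. 22Rv-1, a line from the CWR22R xenograft that makes ARv7 of its own, was infected with a lentivirus carrying a short hairpin against ARv7 (22Rv-1 shARv7) or a control hairpin (22Rv-1 shcontrol). ARv7-expressing C4-2 cells and ARv7-depleted 22Rv-1 cells were obtained by puromycin selection, and cells were plated in triplicate dishes. The sources used here do not give the number of selected lines behind a group. The p-values therefore measure the spread between dishes alone, and a difference that arose during selection cannot be told apart from the group. The comparisons ask which genes changed when the level of ARv7 was raised or lowered.

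Total counts ran from 12318529 to 14672948 per library, so that 3 counts stood for 0.204 to 0.244 CPM, the count scaled to library size. Replicate 3 of C4-2 control stood apart: a comparison of its counts over genes with those of replicates 1 and 2 gave chi-square values, divided by their degrees of freedom, of 12.3 and 6.85, and all other replicate pairs lay between 2.1 and 4.64. KLK3, which encodes the luminal prostate antigen PSA, averaged 2437 ± 25.3 CPM in C4-2 ARv7, 649.9 ± 39.3 CPM in C4-2 control, 24.3 ± 2.98 CPM in 22Rv-1 shARv7 and 15.5 ± 1.2 CPM in 22Rv-1 shcontrol (SD, n = 3 each). The luminal keratin KRT8 was present in all 4 groups, with 280.2 ± 10.5 CPM in C4-2 ARv7, 368.3 ± 50.7 CPM in C4-2 control, 494.9 ± 4.75 CPM in 22Rv-1 shARv7 and 336.7 ± 7.91 CPM in 22Rv-1 shcontrol. All 8 luminal markers together summed to 7320 to 7439 CPM in C4-2 ARv7, against 3867 to 4237 CPM in C4-2 control. In 22Rv-1 they summed to 3695 to 3729 CPM in shARv7, against 4087 to 4145 CPM in shcontrol. Of the 8, 5 rose and 2 fell in C4-2 ARv7 (29.6% and 29.5% of all genes). In 22Rv-1 shARv7, 5 rose and 2 fell (23.9% and 24.1% of all genes).

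Promoter windows are shown for FN1 and SMOC1, which had the largest rises with ARv7 depletion among members at 5 CPM or more, for TNC, which fell strongly there, and for COL4A3 and COL4A4, a pair that is read outward from one short region and rose together. Each window runs from 250 bases before to 50 bases after the RefSeq start on GRCh38.p14, 5′ to 3′ on the strand of its gene. The positions are chr2:215436019-215436318 on the minus strand for FN1, chr14:69879166-69879465 on the plus strand for SMOC1 and chr9:115118108-115118407 on the minus strand for TNC. They are chr2:227164374-227164673 on the plus strand for COL4A3 and chr2:227164156-227164455 on the minus strand for COL4A4. Capitals mark matches on either strand to the GC box bound by Sp1, to the cAMP response element and to the TATA box.
FN1: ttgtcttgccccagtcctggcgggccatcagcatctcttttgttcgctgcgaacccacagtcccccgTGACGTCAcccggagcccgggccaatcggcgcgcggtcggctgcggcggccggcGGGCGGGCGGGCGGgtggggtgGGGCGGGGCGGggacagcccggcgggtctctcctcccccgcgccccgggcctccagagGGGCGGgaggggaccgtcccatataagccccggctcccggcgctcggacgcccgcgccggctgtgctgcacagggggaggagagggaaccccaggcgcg
SMOC1: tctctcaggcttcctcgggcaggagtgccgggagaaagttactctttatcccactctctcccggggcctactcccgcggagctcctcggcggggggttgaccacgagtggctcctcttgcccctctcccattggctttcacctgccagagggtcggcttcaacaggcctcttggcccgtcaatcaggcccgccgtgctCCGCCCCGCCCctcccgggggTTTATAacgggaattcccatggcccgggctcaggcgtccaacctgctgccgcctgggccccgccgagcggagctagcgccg
TNC: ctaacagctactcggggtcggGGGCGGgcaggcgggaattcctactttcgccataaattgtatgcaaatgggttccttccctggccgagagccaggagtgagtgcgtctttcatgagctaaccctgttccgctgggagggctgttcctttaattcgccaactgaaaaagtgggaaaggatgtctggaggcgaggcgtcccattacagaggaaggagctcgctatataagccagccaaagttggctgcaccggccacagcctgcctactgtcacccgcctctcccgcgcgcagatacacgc
COL4A3: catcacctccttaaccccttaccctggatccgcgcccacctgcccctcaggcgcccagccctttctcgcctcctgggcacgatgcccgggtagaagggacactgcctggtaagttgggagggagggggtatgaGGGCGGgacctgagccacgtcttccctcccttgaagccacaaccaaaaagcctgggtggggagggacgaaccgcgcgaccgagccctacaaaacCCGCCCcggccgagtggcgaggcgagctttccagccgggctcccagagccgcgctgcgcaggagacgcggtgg
COL4A4: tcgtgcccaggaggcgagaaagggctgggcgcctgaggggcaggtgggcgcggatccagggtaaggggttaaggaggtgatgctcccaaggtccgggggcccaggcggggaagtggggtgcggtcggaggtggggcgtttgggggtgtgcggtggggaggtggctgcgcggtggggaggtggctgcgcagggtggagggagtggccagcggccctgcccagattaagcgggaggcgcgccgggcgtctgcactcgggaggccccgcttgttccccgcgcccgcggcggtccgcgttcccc
The searched motifs were the GC box GGGCGG, the TATA box TATAAA, the cAMP response element TGACGTCA, the AP-1 site TGACTCA, the androgen response half-site AGAACA, the full palindromic androgen response element, which contains the half-site, and the E-box CACGTG. The FN1 window held 6 GC boxes, of which those starting at bases 122, 126 and 130 and those at 144 and 149 overlap, and 1 cAMP response element starting at base 68 of the window. The SMOC1 window held 2 overlapping GC boxes and 1 TATA box, all on the opposite strand, and starts inside the gene span of the deposited table. The TNC window held 1 GC box, the COL4A3 window held 2 and the COL4A4 window held none of the motifs. Only the exact letters were matched, so variants, such as tataag in the FN1 and TNC windows, were neither marked nor counted. The 5 windows held no androgen response half-site, which says only that these letters are not in these windows. Of the members, 56 had such a window. The GC box was in 62.5% of the members' windows against 43.8% of 27305 windows of the same length, and the androgen response half-site was in 7.14% against 15.1%. TATA boxes were in 16.1% of the members' windows and 12.1% of all windows, AP-1 sites in 3.57% and 5.05%, E-boxes in 1.79% and 7.27%, and cAMP response elements in 1.79% and 1.94%. The full androgen response element was in none of the 56 windows and in 0.00366% of all windows.

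The 3 highest members per gene length were COL6A1, SPOCK1 and LAMB2 in C4-2 ARv7 and COL6A1, LAMB2 and COL12A1 in C4-2 control. They were LAMB2, LAMC1 and FN1 in 22Rv-1 shARv7 and LAMC1, LAMB2 and SPOCK1 in 22Rv-1 shcontrol. Per gene length (FPKM, as the authors deposited it), 19 members reached a mean of 1 FPKM in C4-2 ARv7, 17 in C4-2 control, 25 in 22Rv-1 shARv7 and 23 in 22Rv-1 shcontrol. COL6A1, the alpha 1 chain of collagen VI, was highest in C4-2 with 75.9 ± 2.06 FPKM in C4-2 ARv7 and 53.2 ± 4.63 FPKM in C4-2 control (SD, n = 3 each, here and below). LAMB2 and LAMC1 are the laminin beta 2 and gamma 1 chains. LAMB2 had 49.7 ± 2.62 FPKM in 22Rv-1 shARv7 and 28.6 ± 2.93 FPKM in 22Rv-1 shcontrol, and LAMC1 had 43.3 ± 1.61 and 41.2 ± 0.544 FPKM in the same groups. The members together took 0.272% ± 0.00503 of all counts in C4-2 ARv7, against 0.217% ± 0.005 in C4-2 control, and 0.314% ± 0.0159 in 22Rv-1 shARv7, against 0.209% ± 0.00721 in 22Rv-1 shcontrol. The share was therefore higher in the manipulated cells of both lines, with no overlap between the groups of a line. It is a sum over members that moved both ways, and it carries no scaling factor. By total counts, the median log2 change over all genes was itself 0.152 in C4-2 ARv7 and 0.056 in 22Rv-1 shARv7. The largest gain in mean CPM in C4-2 was that of SPOCK1, from 118.1 in control to 407.2 with ARv7. In 22Rv-1 it was that of FN1, from 61.8 in shcontrol to 711.5 in shARv7. SPOCK1 fell in 22Rv-1, from 145.7 CPM in shcontrol to 32 CPM in shARv7. In bulk RNA, fewer cells that make a transcript and less of it per cell cannot be told apart.

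Fibroblast markers were low. Their summed level over 8 genes, of which 2 passed the filter in each line, was 10.1 to 13 CPM in C4-2 ARv7, against 1.2 to 1.71 CPM in C4-2 control, and 27.1 to 28 CPM in 22Rv-1 shARv7, against 57.1 to 61.3 CPM in 22Rv-1 shcontrol. FAP and TCF21 were at 0 in all 4 groups, and THY1 and PRRX1 were at 0 in 3 of them. Both tested there rose in C4-2 ARv7, VIM by 2.78 ± 0.279 on the log2 scale (± SE) and PDGFRB by 3.6 ± 0.423. In 22Rv-1 shARv7, VIM fell, with a log2 change of -1.64 ± 0.098, and TWIST1 was not called. The part of these markers in the matrix results was not tested. Smooth muscle markers summed to 16.1 to 20.8 CPM in C4-2 ARv7 and 14.8 to 19.2 CPM in C4-2 control, with CNN1 and DES at 0. In 22Rv-1 they summed to 51.8 to 54.1 CPM in shARv7 and 33.8 to 35.2 CPM in shcontrol, where TAGLN rose by 0.72 ± 0.0807 on the log2 scale with depletion. Endothelial markers summed to at most 16.9 CPM, basal epithelial markers to at most 7.44 CPM and leukocyte markers to at most 11.5 CPM in any library.

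In C4-2 cells given ARv7, the laminin alpha 3 chain, both expressed collagen VI chains, perlecan and the proteoglycan testican-1 rose, while fibrillin-1, SPARC and collagens XI, XII and VII fell. The largest change was the fall of FBN1, 22.3-fold. Of the 75 members, 41 passed the filter on low counts, and 30 of these were called by edgeR at an adjusted p under 0.05, against 59.1% of all 12783 genes tested. The calls were 18 rises (29.6% of all genes) and 12 falls (29.5% of all genes). Changes of at least 2-fold were called for 17 members, 10 higher (8.52% of all genes) and 7 lower (4.73% of all genes), against 13.2% of all genes in either direction. The median absolute log2 change was 0.692 over the tested members and 0.335 over all genes.

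Among the adhesive glycoproteins, FBN1, the main protein of extracellular microfibrils, had 1.04, 2.05 and 1.46 CPM in C4-2 ARv7, against 34.8, 29.4 and 37.4 CPM in C4-2 control. The groups lay far apart, and the log2 fold change was -4.48 ± 0.18 (edgeR adjusted p = 5.39e-14). THBS1, thrombospondin-1, an adhesive protein that activates latent TGF-beta, fell to 8.83, 7.98 and 8.09 CPM in C4-2 ARv7, against 14.7, 14.5 and 11.8 CPM in C4-2 control. Its log2 change was -0.72 ± 0.141 (edgeR adjusted p = 0.00022). The authors' counting is not given with a strand, and 4.89% of the exon bases of THBS1 overlap the opposite-strand gene FSIP1, which fell as well, with a log2 change of -0.77 ± 0.224. FN1, fibronectin, had 34.8, 32.8 and 35.3 CPM in C4-2 ARv7, against 26.8, 23.2 and 25.2 CPM in C4-2 control. The groups did not overlap, and FN1 rose 1.37-fold (log2 0.45 ± 0.0914, edgeR adjusted p = 0.000284). TNC, tenascin-C, was low in both groups and was not called (log2 -0.0456 ± 0.359).

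In the SPARC family, secreted proteins that modulate contact between cells and matrix, changes went both ways. SPOCK1, testican-1, a proteoglycan of this family, had 410.4, 397.7 and 413.6 CPM in C4-2 ARv7, against 115.3, 110.5 and 128.6 CPM in C4-2 control. All ARv7 libraries were over 3 times the control level, and the fold was 3.45 (log2 1.79 ± 0.0636, edgeR adjusted p = 7.94e-15). SPARC itself, with 15 counts over the C4-2 ARv7 libraries and 208 over C4-2 control, fell 14-fold (log2 -3.81 ± 0.35, edgeR adjusted p = 1.62e-08). Its relative SPARCL1 had 25 and 103 counts in the same groups and fell 4.24-fold. SMOC2, a calcium-binding relative, had 5.32 ± 0.913 CPM in C4-2 ARv7 and 3.31 ± 0.451 CPM in C4-2 control, and rose by 0.69 ± 0.221 on the log2 scale. Without C4-2 control replicate 2 or C4-2 ARv7 replicate 1 that call was lost, with edgeR adjusted p of 0.0521 and 0.0649.

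Of the basement membrane linkers, HSPG2 and AGRN rose and NID2 fell. HSPG2, perlecan, a heparan sulfate proteoglycan, had 36.8, 29.1 and 29.3 CPM in C4-2 ARv7, against 13, 10.9 and 12.1 CPM in C4-2 control. The groups were well separated and the fold was 2.66 (log2 1.41 ± 0.12, edgeR adjusted p = 5.36e-09). Opposite-strand exons of LDLRAD2 cover 11.7% of its exon bases, but LDLRAD2 itself had no count in any C4-2 library. AGRN, agrin, which binds laminin and dystroglycan, had 114.6, 103.7 and 105.6 CPM in C4-2 ARv7, against 78.6, 79.7 and 91 CPM in C4-2 control, a rise of 0.38 ± 0.0717 on the log2 scale (edgeR adjusted p = 0.000146). NID2, nidogen-2, fell by 1.11 ± 0.361 on the log2 scale at 44 counts in C4-2 ARv7 and 92 in C4-2 control. That call was lost without C4-2 control replicate 2, C4-2 ARv7 replicate 1 or C4-2 ARv7 replicate 3 (edgeR adjusted p 0.0512, 0.0727 and 0.051). Exons of RTRAF cover 30% of NID2 on the other strand. RTRAF was not called (log2 0.13 ± 0.0654).

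Of 7 tested laminin chains, 3 rose (29.6% of all genes), 1 fell (29.5% of all genes) and 3 were not called. LAMA3, an alpha chain of the laminins that anchor epithelia through hemidesmosomes, had 260.2, 259.4 and 245 CPM in C4-2 ARv7, against 140.4, 140.3 and 139.1 CPM in C4-2 control. The replicates were tight and far apart between groups (log2 0.86 ± 0.057, edgeR adjusted p = 1.12e-10). LAMB2 had 312.9, 299.5 and 281.2 CPM in C4-2 ARv7, against 350.6, 361.9 and 427.3 CPM in C4-2 control, and fell by 0.35 ± 0.0699 on the log2 scale (edgeR adjusted p = 0.000249). LAMC3, the gamma 3 chain, rose by 1.04 ± 0.281, and LAMB1, the beta 1 chain, rose by 0.84 ± 0.262 on the same scale. Without C4-2 ARv7 replicate 1, the adjusted p of LAMB1 was 0.0511. LAMB3, a beta chain that pairs with LAMA3, stayed under the filter, with at most 22 counts in a C4-2 library. LAMA5 and LAMC1, the most widespread alpha and gamma chains, were not called at log2 changes of 0.0401 and -0.0492. With total-count scaling LAMA5 was called higher (log2 0.187, edgeR adjusted p = 0.0115) and the LAMC1 value changed sign to 0.0986.

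Among network and filament collagens, COL6A1 had 379.5, 394.9 and 374.1 CPM in C4-2 ARv7, against 292.8, 319.7 and 278.4 CPM in C4-2 control. COL6A2, the alpha 2 chain that lies downstream of COL6A1 on chromosome 21, had 89, 83.1 and 87.4 CPM in C4-2 ARv7, against 54.3, 53.7 and 56.3 CPM in C4-2 control. Neither pair of groups overlapped, and COL6A1 rose by 0.37 ± 0.0603 and COL6A2 by 0.66 ± 0.0681 on the log2 scale (edgeR adjusted p = 3.21e-05 and 8.96e-08). The third classical chain, COL6A3, had at most 2 counts in a C4-2 library. COL7A1, the collagen of anchoring fibrils, had 46.7, 49 and 47.6 CPM in C4-2 ARv7, against 79.3, 84.4 and 62.3 CPM in C4-2 control, a log2 change of -0.66 ± 0.0922 (edgeR adjusted p = 4.93e-06). COL4A6 had 3.57, 4.71 and 3.31 CPM in C4-2 ARv7, against 9.7, 8.32 and 6.37 CPM in C4-2 control. It fell 2.1-fold, while COL4A5, which starts 341 bases away from COL4A6 on chromosome X in the opposite direction and is by far the highest collagen IV gene, was not called at 163.4, 164.1 and 159.7 CPM in C4-2 ARv7 and 188, 182.6 and 161.8 CPM in C4-2 control. Without C4-2 control replicate 3, COL4A5 was called lower (log2 -0.193, edgeR adjusted p = 0.00114). COL4A2 rose by 1.54 ± 0.305 on the log2 scale at 165 counts in C4-2 ARv7 and 54 in C4-2 control, and COL4A1, which overlaps its start head to head, had at most 1 count in a C4-2 library. COL4A4 had 0.844, 0.614 and 0.693 CPM in C4-2 ARv7, against 1.42, 1.35 and 1.87 CPM in C4-2 control, and fell by 1.09 ± 0.378. It was not called without C4-2 control replicate 3, C4-2 ARv7 replicate 2 or C4-2 ARv7 replicate 3 (edgeR adjusted p 0.0802, 0.0722 and 0.0525) or by DESeq2 (adjusted p 0.0714).

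Of 6 tested fibrillar collagens, 4 rose (29.6% of all genes), 1 fell (29.5% of all genes) and 1 was not called. COL11A2, a chain of the minor fibrillar collagen XI, had 1.82, 1.84 and 2.39 CPM in C4-2 ARv7, against 9.63, 8.75 and 6.29 CPM in C4-2 control. That was a 4.1-fold fall with no overlap (log2 -2.03 ± 0.23, edgeR adjusted p = 2.98e-07). COL1A1, the main chain of collagen I, had 11.8, 11.2 and 10 CPM in C4-2 ARv7, against 7.01, 9.1 and 7.49 CPM in C4-2 control, and rose by 0.48 ± 0.152. Its partner COL1A2 had at most 4 counts in any C4-2 library. COL5A1, COL24A1 and COL27A1 rose by 1.51 ± 0.401, 1.65 ± 0.518 and 1.44 ± 0.399 on the log2 scale, each at a mean of under 5 CPM. The groups of COL5A1 overlapped, and COL24A1 lost its call without C4-2 control replicate 2 or C4-2 ARv7 replicate 3 (edgeR adjusted p 0.0652 and 0.0504).

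Collagens that decorate fibrils or span membranes also went both ways. COL12A1, which bridges fibrils, had 259.5, 250.9 and 251.5 CPM in C4-2 ARv7, against 409.9, 365.3 and 356.8 CPM in C4-2 control, and fell by 0.57 ± 0.0609 on the log2 scale (edgeR adjusted p = 1.39e-07). COL16A1, a related fibril-associated collagen, had 17.1, 16.7 and 17.3 CPM in C4-2 ARv7, against 6.51, 5.48 and 7.04 CPM in C4-2 control, a rise of 1.42 ± 0.139 (edgeR adjusted p = 3.98e-08). COL18A1, whose C-terminal fragment is endostatin, had 16, 18.7 and 15.4 CPM in C4-2 ARv7, against 8.78, 7.68 and 7.12 CPM in C4-2 control, a rise of 1.09 ± 0.139 (edgeR adjusted p = 1.57e-06). In these 3 genes no library of one group reached the other. SLC19A1 overlaps 16.4% of the exon bases of COL18A1 on the other strand and was not called (log2 0.16 ± 0.0888). COL9A2 rose by 1.15 ± 0.276 and COL26A1 fell by 0.38 ± 0.0875 on the log2 scale. With total counts and no scaling factor, the median change of all genes moved to 0.152 in C4-2 from 0.00505, and 67.2% of all calls were rises in place of 50%. The member calls were then 19 higher and 12 lower.

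In 22Rv-1 cells depleted of ARv7, most of the called matrix genes rose, among them SMOC1, fibronectin, laminin alpha 3, perlecan and the collagen chains COL5A2, COL6A1, COL6A2 and COL27A1. The falls were the small leucine-rich proteoglycans, tenascin-C, testican-1, nidogen-1 and single collagen and laminin chains. SMOC1 rose 29.8-fold and FN1 11.5-fold. Of the 75 members, 51 passed the filter, and edgeR called 37 of these, against 48% of all 13459 genes tested. The calls were 28 rises (23.9% of all genes) and 9 falls (24.1% of all genes). Changes of at least 2-fold were called for 23 members, 17 higher (5.6% of all genes) and 6 lower (2.04% of all genes), against 7.65% of all genes in either direction. The median absolute log2 change was 0.895 over the tested members and 0.224 over all genes.

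**Figure D1:**
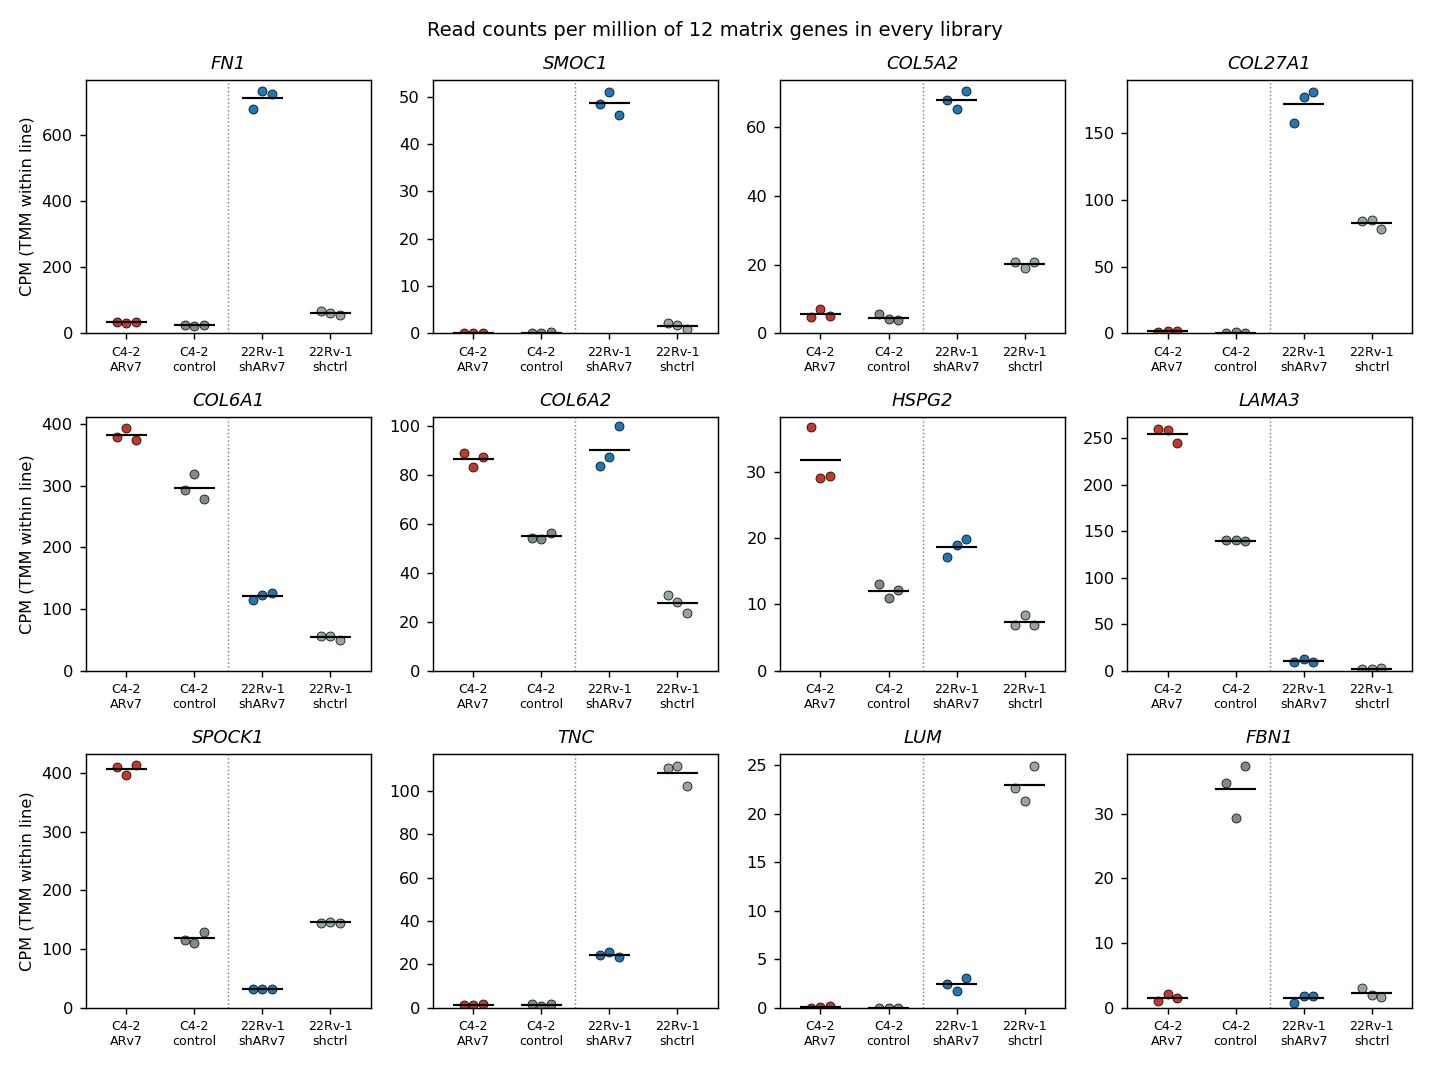
Levels of 12 matrix genes in each library, in CPM normalised within a line (linear axes from 0), with groups on the horizontal axis (22Rv-1 shctrl is 22Rv-1 shcontrol). Points are libraries and bars are means; the dotted line separates the cell lines, whose levels are not to be set side by side. FN1 stands at 678.6 to 731 CPM in 22Rv-1 shARv7, above all 22Rv-1 shcontrol libraries, and FBN1 at 1.04 to 2.05 CPM in C4-2 ARv7, below all C4-2 control libraries.

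FN1 had 678.6, 731 and 724.8 CPM in 22Rv-1 shARv7, against 67.2, 61.7 and 56.6 CPM in 22Rv-1 shcontrol. Each depleted library was at least 10 times any control library, and the log2 change was 3.52 ± 0.0543 (edgeR adjusted p = 2e-63). FN1 lies at chr2:215360440-215436073 on the minus strand of GRCh38. TNC, a large glycoprotein that counters adhesion to fibronectin, had 24.5, 25.6 and 23.5 CPM in 22Rv-1 shARv7, against 110.8, 111.6 and 102.2 CPM in 22Rv-1 shcontrol. It fell 4.4-fold with no overlap between groups (log2 -2.14 ± 0.0734, edgeR adjusted p = 6.77e-40). FBN1, FBN2 and THBS1 were not called, at log2 changes of -0.62 ± 0.35, -0.6 ± 0.34 and 0.0362 ± 0.0963.

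SMOC1, a secreted calcium-binding protein of basement membranes that lies at chr14:69854131-70032366 on the plus strand, had 48.5, 51 and 46.2 CPM in 22Rv-1 shARv7, against 2.2, 1.78 and 0.901 CPM in 22Rv-1 shcontrol. The lowest depleted library was more than 20 times the highest control library, and the log2 change was 4.9 ± 0.148 (edgeR adjusted p = 1.78e-43). SPOCK1 had 31.9, 32.6 and 31.4 CPM in 22Rv-1 shARv7, against 145.1, 146.8 and 145.1 CPM in 22Rv-1 shcontrol. That was a 4.55-fold fall with very little spread (log2 -2.19 ± 0.0659, edgeR adjusted p = 1.76e-43). SPOCK2, testican-2, rose by 0.6 ± 0.13 on the log2 scale. SMOC2, SPARC and SPARCL1 stayed under the filter in 22Rv-1.

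All 3 small leucine-rich proteoglycans fell (24.1% of all genes). LUM, lumican, which spaces collagen fibrils, had 2.48, 1.68 and 3.03 CPM in 22Rv-1 shARv7, against 22.6, 21.3 and 24.9 CPM in 22Rv-1 shcontrol, with no overlap (log2 -3.24 ± 0.163, edgeR adjusted p = 1.73e-29). DCN, decorin, whose gene lies 28990 bases from LUM on chromosome 12 and is read in the same direction, had 7 counts over the 22Rv-1 shARv7 libraries and 100 over 22Rv-1 shcontrol. Its log2 change was -3.74 ± 0.516 (edgeR adjusted p = 3.65e-09), and -4.35 without 22Rv-1 shARv7 replicate 1. BGN, biglycan, had 0.919 ± 0.33 CPM in 22Rv-1 shARv7 and 3.99 ± 0.78 CPM in 22Rv-1 shcontrol, a log2 change of -2.12 ± 0.325 (edgeR adjusted p = 6.41e-08).

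Among the basement membrane linkers, HSPG2 had 17.2, 19 and 19.8 CPM in 22Rv-1 shARv7, against 6.81, 8.36 and 6.93 CPM in 22Rv-1 shcontrol. The groups were apart and the fold was 2.54 (log2 1.35 ± 0.134, edgeR adjusted p = 3.71e-14). NID1, nidogen-1, which joins laminin to collagen IV, fell to 66.5, 64.6 and 75 CPM in 22Rv-1 shARv7, against 110.6, 107 and 104.8 CPM in 22Rv-1 shcontrol (log2 -0.64 ± 0.0633, edgeR adjusted p = 2.42e-14). AGRN was called at a rise of 0.13 ± 0.0544 on the log2 scale, but its groups overlapped, with 164.6, 182.6 and 183.4 CPM in 22Rv-1 shARv7 and 167.7, 168.8 and 149.6 CPM in 22Rv-1 shcontrol. Without 22Rv-1 shcontrol replicate 3, 22Rv-1 shARv7 replicate 2 or 22Rv-1 shARv7 replicate 3, its edgeR adjusted p was 0.257, 0.197 and 0.232, and DESeq2 gave 0.112. NID2 rose by 0.88 ± 0.361 with overlapping groups. Its call was lost without 22Rv-1 shcontrol replicates 1 or 3 or 22Rv-1 shARv7 replicates 1 or 3, with edgeR adjusted p up to 0.369, and by DESeq2 (adjusted p 0.133). RTRAF rose by 0.24 ± 0.0686.

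Of 8 tested laminin chains, 5 rose (23.9% of all genes), 1 fell (24.1% of all genes) and 2 were not called. LAMA3 had 8.73, 13 and 9.09 CPM in 22Rv-1 shARv7, against 1.77, 2.01 and 2.36 CPM in 22Rv-1 shcontrol, with no overlap (log2 2.32 ± 0.213, edgeR adjusted p = 1.18e-15). LAMB3, its beta chain partner, rose by 1.42 ± 0.347 on the log2 scale, at 116 counts in 22Rv-1 shARv7 against 44 in 22Rv-1 shcontrol. LAMB2 had 322, 330.6 and 354.6 CPM in 22Rv-1 shARv7, against 212.1, 211.5 and 175.7 CPM in 22Rv-1 shcontrol, a clear separation (log2 0.75 ± 0.0527, edgeR adjusted p = 3.24e-21). LAMA5 rose by 0.29 ± 0.0532. LAMB1 fell by 0.27 ± 0.067, with 61.1, 65.9 and 72.2 CPM in 22Rv-1 shARv7 and 81.2, 76 and 83.1 CPM in 22Rv-1 shcontrol. It was not called by limma on log2(FPKM + 1), at an adjusted p of 0.0657.

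Of 7 tested fibrillar collagens, 6 rose (23.9% of all genes), none fell (24.1% of all genes) and 1 was not called. COL5A2, a chain of collagen V, which starts fibrils, had 67.9, 65.3 and 70.4 CPM in 22Rv-1 shARv7, against 20.7, 19.1 and 20.7 CPM in 22Rv-1 shcontrol. Its 3.36-fold rise had a log2 change of 1.75 ± 0.0825 (edgeR adjusted p = 4.35e-31). COL3A1, a collagen of soft tissue that lies tail to tail with COL5A2 on chromosome 2, had 8.43, 6.5 and 6.55 CPM in 22Rv-1 shARv7, against 4.4, 5.42 and 3.26 CPM in 22Rv-1 shcontrol, and rose by 0.72 ± 0.199 with no overlap. COL27A1, a fibrillar collagen of cartilage, had 157, 177.1 and 180.7 CPM in 22Rv-1 shARv7, against 83.9, 84.7 and 78.1 CPM in 22Rv-1 shcontrol, again without overlap (log2 1.06 ± 0.0586, edgeR adjusted p = 5.17e-27). COL2A1 and COL11A2, both cartilage collagens, rose by 1.99 ± 0.303 and 1.03 ± 0.256. COL1A1 had 20, 21.8 and 24 CPM in 22Rv-1 shARv7, against 19, 16.7 and 16.9 CPM in 22Rv-1 shcontrol, and rose by 0.32 ± 0.107. Without 22Rv-1 shARv7 replicate 3 its edgeR adjusted p was 0.0941. COL5A1, the partner of COL5A2, was not called (log2 0.19 ± 0.0942, edgeR adjusted p = 0.0893).

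In collagen VI, COL6A1 had 115.4, 122.6 and 125.8 CPM in 22Rv-1 shARv7, against 56.5, 55.9 and 49.4 CPM in 22Rv-1 shcontrol, and COL6A2 had 83.5, 87.2 and 99.8 CPM in 22Rv-1 shARv7, against 30.8, 28.2 and 23.4 CPM in 22Rv-1 shcontrol. Both chains rose, by 1.17 ± 0.0645 and 1.72 ± 0.0798 on the log2 scale (edgeR adjusted p = 4.61e-27 and 1.8e-31). COL7A1 was called at 0.17 ± 0.053, with 177.7, 198.9 and 192.8 CPM in 22Rv-1 shARv7 and 177.9, 165.4 and 161.4 CPM in 22Rv-1 shcontrol. The groups overlapped by a single library, and without 22Rv-1 shARv7 replicate 2 the edgeR adjusted p was 0.0665.

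Of 6 tested network collagens, collagen IV and its short-chain relatives, 2 rose (23.9% of all genes), 1 fell (24.1% of all genes) and 3 were not called. COL4A3 had 3.76, 5.35 and 5.07 CPM in 22Rv-1 shARv7, against 0.851, 1.32 and 0.763 CPM in 22Rv-1 shcontrol, and its head-to-head neighbour COL4A4 had 2.48, 2.67 and 2.89 CPM in 22Rv-1 shARv7, against 0.993, 1.24 and 1.04 CPM in 22Rv-1 shcontrol. Both rose without overlap, by 2.28 ± 0.306 and 1.3 ± 0.342 on the log2 scale (edgeR adjusted p = 1.68e-09 and 0.00106). The genes lie 171 bases apart and the windows printed above share 82 bases, read on opposite strands. In C4-2, COL4A3 was not called, with 1.23, 0.955 and 0.539 CPM in C4-2 ARv7 and 1.13, 0.854 and 1.12 CPM in C4-2 control (log2 -0.16 ± 0.407). COL4A5, mutated with COL4A3 and COL4A4 in Alport syndrome, had 86.6, 80.8 and 84.6 CPM in 22Rv-1 shARv7, against 121.9, 114.2 and 119.4 CPM in 22Rv-1 shcontrol, and fell by 0.5 ± 0.0594 (edgeR adjusted p = 3.92e-11). Its neighbour COL4A6 had 0.527, 0.917 and 1.13 CPM in 22Rv-1 shARv7, against 2.2, 1.01 and 1.59 CPM in 22Rv-1 shcontrol, and was not called (log2 -0.9 ± 0.41, edgeR adjusted p = 0.0644). Without 22Rv-1 shARv7 replicate 3 or 22Rv-1 shcontrol replicate 2 it was called lower (edgeR adjusted p 0.0495 and 0.0311).

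The other collagens were mostly low and rose where called, save COL21A1. COL18A1 had 10.8, 11.3 and 10.1 CPM in 22Rv-1 shARv7, against 7.16, 5.19 and 6.1 CPM in 22Rv-1 shcontrol, a rise of 0.8 ± 0.161 (edgeR adjusted p = 2.05e-05). SLC19A1 was not called there either, at 0.15 ± 0.0888. COL9A2 and COL9A3, chains of the fibril-associated collagen IX, rose by 0.41 ± 0.106 and 0.28 ± 0.0792. COL14A1, another fibril-associated collagen, rose by 2.48 ± 0.294, COL25A1, a transmembrane collagen of neurons, by 3.14 ± 0.427 and COL28A1 by 1.96 ± 0.368, each at a mean of under 6 CPM in either group. COL21A1 had 8 counts over 22Rv-1 shARv7 and 69 over 22Rv-1 shcontrol. Its log2 change was -3.02 ± 0.551 (edgeR adjusted p = 3.36e-06), and -3.82 without 22Rv-1 shARv7 replicate 2.

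**Figure D2:**
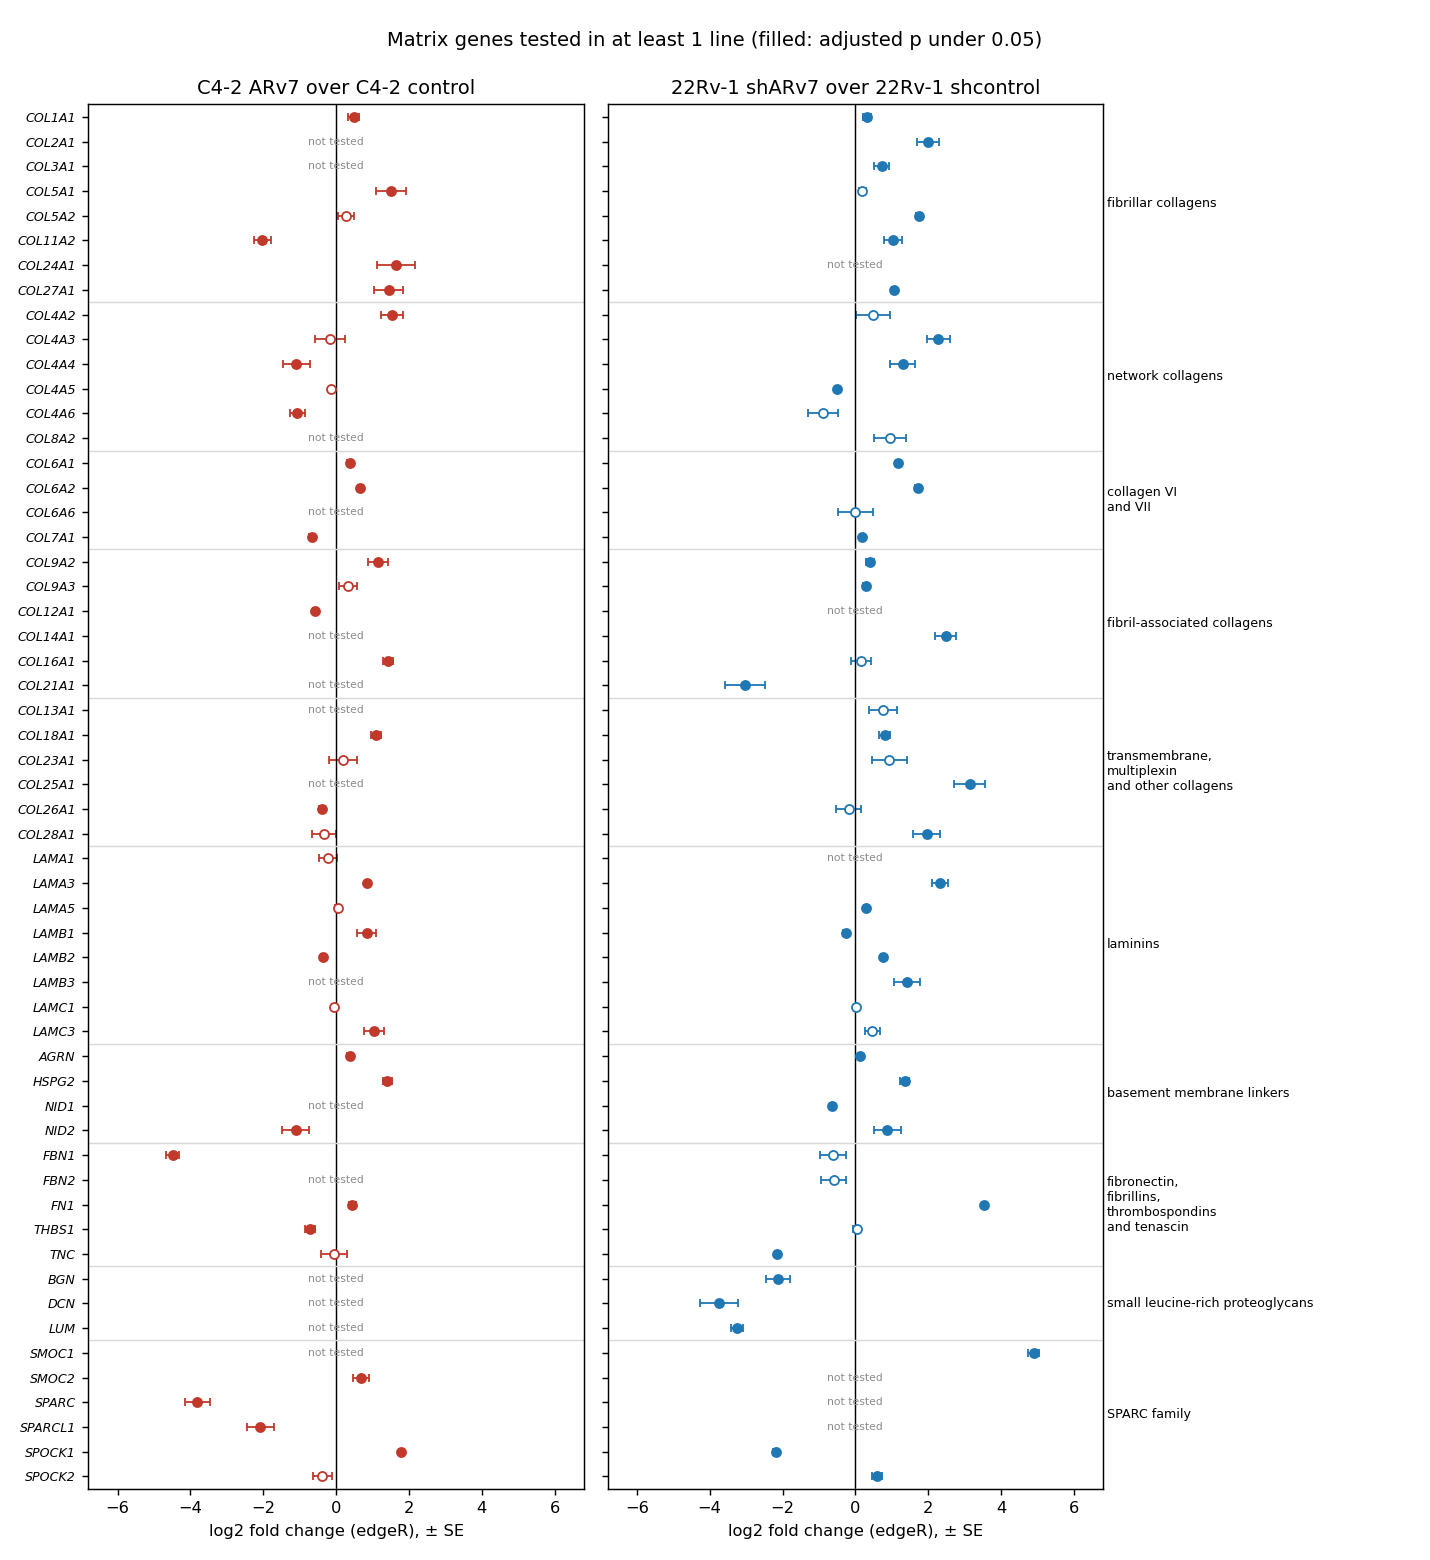
Log2 fold changes with standard errors for 56 of the 57 members tested in at least 1 line, grouped by class from fibrillar collagens to the SPARC family, in C4-2 ARv7 over C4-2 control (left) and 22Rv-1 shARv7 over 22Rv-1 shcontrol (right). Filled points have an edgeR adjusted p under 0.05. The widest points are FBN1 at -4.48 on the left and SMOC1 at 4.9 on the right.

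The makeup of the chains followed these changes. Per length, LAMA3 was 59.1% ± 1.27 of the summed FPKM of the 5 laminin alpha chains in C4-2 ARv7, against 44.9% ± 0.652 in C4-2 control, and LAMA5 held nearly all of the rest. In 22Rv-1, LAMA5 dominated, and LAMA3 was 3.78% ± 0.679 in shARv7, against 0.949% ± 0.161 in shcontrol. LAMB2 was 92% ± 0.447 of the beta chains in 22Rv-1 shARv7, against 86.2% ± 1.82 in 22Rv-1 shcontrol, and 98.7% ± 0.368 in C4-2 ARv7, against 99.4% ± 0.0686 in C4-2 control. LAMC1 was the gamma chain at 97.6% or more in every group. COL6A2 was 42.4% ± 1.44 of the collagen VI chains in 22Rv-1 shARv7, against 33.3% ± 1.65 in 22Rv-1 shcontrol, and 18.4% ± 0.916 in C4-2 ARv7, against 15.6% ± 1.22 in C4-2 control. COL4A5 was 88.3% ± 1.83 of collagen IV in 22Rv-1 shARv7, against 95.8% ± 0.307 in 22Rv-1 shcontrol, with COL4A3 at 6.52% ± 1.24 against 1.04% ± 0.351. In C4-2 it was 94.6% ± 0.88 with ARv7 and 92.5% ± 0.393 in control. The chains that usually make up collagen IV were low, COL4A1 at 0.00621 FPKM or less and COL4A2 at 0.207 FPKM or less in every group. COL1A2, the partner of COL1A1 in collagen I, had at most 0.0106 FPKM. These shares are descriptions, with no test.

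**Figure D3:**
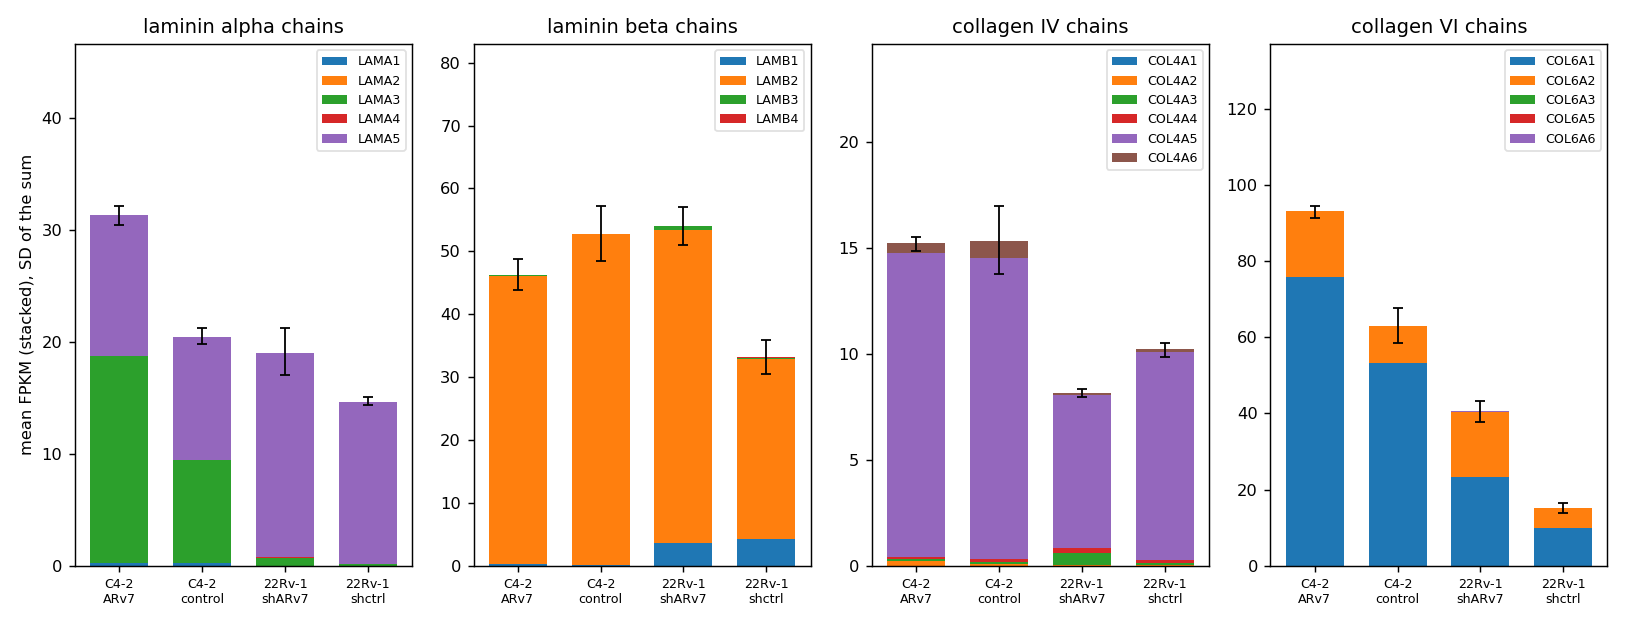
Mean FPKM of laminin alpha, laminin beta, collagen IV and collagen VI chains, stacked by gene (vertical axes, linear from 0) in the 4 groups (horizontal axes; 22Rv-1 shctrl is 22Rv-1 shcontrol). Error bars are the SD of the sum over 3 libraries. LAMA3 makes up 59.1% of the alpha chains in C4-2 ARv7 and 3.78% in 22Rv-1 shARv7, and COL4A5 most of collagen IV in every group.

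ARv7 was raised in one line and lowered in the other, so a gene that follows ARv7 in both would move in opposite directions. Among 35 members tested in both lines, 10 rose in both (against 6.99% of 12080 genes tested in both): FN1, COL6A1, COL6A2, COL1A1, COL27A1, COL9A2, COL18A1, LAMA3, HSPG2 and AGRN. None fell in both (7.14% of all genes). The pair of members that rose in C4-2 ARv7 and fell in 22Rv-1 shARv7 were SPOCK1 and LAMB1 (9.43% of all genes), and 5 fell in C4-2 ARv7 and rose in 22Rv-1 shARv7 (7.12% of all genes), COL11A2, COL4A4, COL7A1, LAMB2 and NID2. The comparisons share no library. Of the joint calls, those of AGRN, COL1A1, LAMB1, COL4A4, COL7A1 and NID2 rest on at least one call that was lost under an alternative given above.

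The difference itself was tested as the high-minus-low ARv7 change in 22Rv-1 minus that in C4-2, in a fit of all 12 libraries. Of 57 members tested, 38 differed, 11 with a positive (23.3% of all genes) and 27 with a negative difference (27.4% of all genes), against 50.7% of 14235 genes tested. The 57 include members under the filter in 1 line, such as SMOC1, whose differences rest on few counts there; 35 passed it in both. With total counts the median difference over all genes moved to -0.248 from -0.0618, and 28% of all calls were positive in place of 46%. Among the members, 10 then had a positive and 29 a negative difference. FN1 had a difference of -3.98 ± 0.0994 on the log2 scale (edgeR adjusted p = 6.56e-28), and LAMA3 one of -3.19 ± 0.175 (edgeR adjusted p = 1.05e-17). HSPG2, COL6A2 and COL6A1 had differences of -2.76 ± 0.179, -2.38 ± 0.115 and -1.54 ± 0.0873. For members called higher in both lines, such as these, the difference is in essence both rises added, with a minus sign. Its call follows from theirs and is no further evidence. FBN1 had a positive difference of 5.09 ± 0.388 (edgeR adjusted p = 1.2e-13), and TNC had 2.18 ± 0.292. SPOCK1, which went with ARv7 in both lines, still differed by 0.39 ± 0.086, its change being larger in 22Rv-1. LAMB2, which went against ARv7 in both, differed by -0.41 ± 0.0965. For COL4A4 and NID2 the difference was not called (-0.21 ± 0.534 and 0.22 ± 0.546). When the responses were compared as measured, shARv7 over shcontrol minus ARv7 over control, 36 members differed (50.2% of all genes), 25 with a positive and 11 with a negative difference (25.1% of all genes in each direction).

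**Figure D4:**
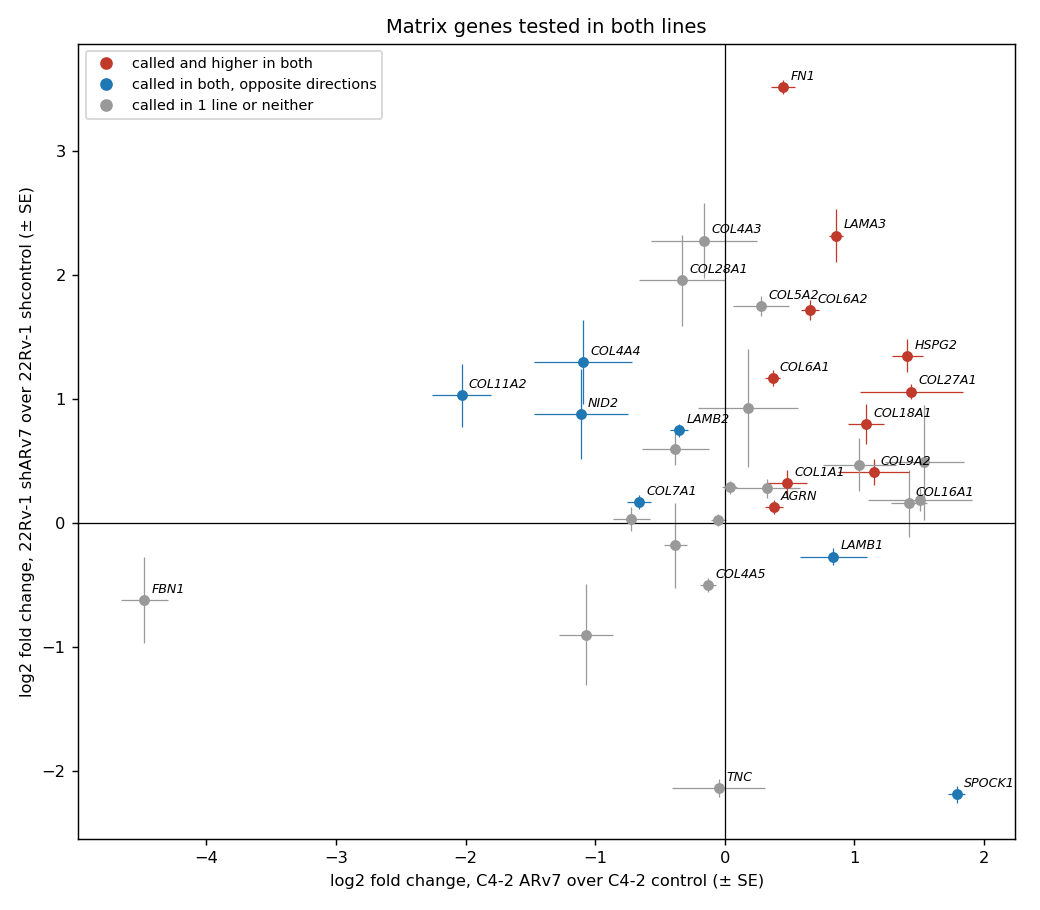
Log2 fold change in C4-2 ARv7 over C4-2 control (horizontal) against that in 22Rv-1 shARv7 over 22Rv-1 shcontrol (vertical) for the 35 members tested in both lines, with standard errors. The 10 genes called higher in both lie at the upper right, with FN1 at 0.45 and 3.52, and SPOCK1 at 1.79 and -2.19 lies at the lower right.

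The control cells of the lines differed in most of these genes, as they did in 83.4% of all genes tested. 22Rv-1 shcontrol had more lumican, decorin, tenascin-C, nidogen-1 and several fibrillar collagens, and C4-2 control had more collagen XII, laminin alpha 3, fibrillin-1 and SPARC. Of 57 members tested, edgeR called 50, 30 higher (42.5% of all genes) and 20 lower (40.9% of all genes) in 22Rv-1 shcontrol, against 83.4% of 14235 genes tested. The ratios below are of total counts with an exact 95% interval, which covers counting error only. LUM had 953 counts over 22Rv-1 shcontrol and none over C4-2 control, at least 329.5-fold higher when the control is set to 3 counts over the group. NID1 had 4452 counts in 22Rv-1 shcontrol and 2 in C4-2 control, a ratio of 2309 (638.9 to 19073). COL27A1 was 130.8-fold higher (89.7 to 198.8) and TNC 80.1-fold higher (61.8 to 105.6) in 22Rv-1 shcontrol. LAMB1 and COL5A1 were 24.3-fold (20.5 to 28.9) and 24.2-fold (18 to 33.3) higher, and DCN and FBN2 at least 34.6-fold and 32.5-fold higher. In the other direction, COL12A1 had 17 counts in 22Rv-1 shcontrol and 15690 in C4-2 control, 892.9-fold lower (555.6 to 1527). LAMA3 was 65.8-fold lower (53.2 to 82.6), SPARC 40.2-fold lower (16.9 to 124.8) and FBN1 14.6-fold lower (11.8 to 18.1) in 22Rv-1 shcontrol, and SMOC2 at least 44-fold lower. SPOCK1 was close, 1.28-fold higher (1.23 to 1.33). The lines differ in origin and vector as well, which cannot be told apart here.

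Of the 75 members, 57 were tested in at least 1 line and 18 in neither. COL15A1 and COL6A5 had no count in any of the 12 libraries. In neither line did the filter pass COL1A2, COL4A1, COL5A3, COL6A3, COL8A1, COL9A1, COL10A1, COL11A1, COL17A1, COL19A1, COL20A1, COL22A1, LAMA2, LAMA4, LAMB4 or THBS2. The 34 members under the filter in C4-2 had at most 30 counts in a library, and the 24 under it in 22Rv-1 at most 13. SMOC1, which rose 29.8-fold in 22Rv-1 shARv7, had 3 counts over C4-2 ARv7 and 4 over C4-2 control, so that no change was detectable at this depth. COL12A1, high in C4-2, had at most 13 counts in a 22Rv-1 library. Of the tested members, 11 were not called in C4-2, with log2 changes from -0.38 for SPOCK2 to 0.33 for COL9A3. In 22Rv-1, 14 were not called, with log2 changes from -0.9 for COL4A6 to 0.96 for COL8A2, a short-chain collagen. COL8A2 was called higher without 22Rv-1 shcontrol replicate 1 (log2 2.32, edgeR adjusted p = 0.000506) or 22Rv-1 shARv7 replicate 1 (log2 1.17, edgeR adjusted p = 0.0289). It was also called with the replicate block (log2 1.04, edgeR adjusted p = 0.0432). COL13A1, COL5A1, FBN2 and LAMC3 in 22Rv-1 and COL9A3 in C4-2 were each called when 1 library was left out, at edgeR adjusted p of 0.0299, 0.0465, 0.0461, 0.019 and 0.0276 at the lowest.

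Of 29 genes for enzymes and chaperones that modify, export and crosslink collagen, 24 were tested in C4-2, where 7 rose and 6 fell, against 29.6% and 29.5% of all genes. In 22Rv-1, 26 were tested, of which 10 rose and 6 fell, against 23.9% and 24.1% of all genes. PLOD2, which hydroxylates telopeptide lysines, rose by 2.36 ± 0.197 on the log2 scale in C4-2 ARv7 and fell by 0.38 ± 0.065 in 22Rv-1 shARv7. P4HA1, a catalytic subunit of prolyl 4-hydroxylase, fell by 1.81 ± 0.0708 in C4-2 ARv7 and rose by 0.35 ± 0.0873 in 22Rv-1 shARv7. TMEM38B, an endoplasmic reticulum channel mutated in brittle bone disease, fell by 0.69 ± 0.0675 in C4-2 ARv7. FKBP10, a collagen chaperone, rose in both, by 0.64 ± 0.0614 in C4-2 ARv7 and 0.37 ± 0.0501 in 22Rv-1 shARv7. COLGALT2, which adds galactose to collagen, fell in both, by 0.98 ± 0.144 in C4-2 ARv7 and 1.46 ± 0.106 in 22Rv-1 shARv7. LOXL2, a lysyl oxidase that crosslinks collagen, also fell in both, by 0.83 ± 0.186 and 0.79 ± 0.114. MIA3, which exports large collagens from the endoplasmic reticulum, rose by 0.47 ± 0.0521 in 22Rv-1 shARv7.

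Of 26 receptors for matrix, 20 were tested in C4-2, where 3 rose and 8 fell (29.6% and 29.5% of all genes), and 23 in 22Rv-1, where 10 rose and 5 fell (23.9% and 24.1% of all genes). SDC2, the heparan sulfate proteoglycan syndecan-2, rose by 1.36 ± 0.0747 in C4-2 ARv7 and fell by 0.85 ± 0.0693 in 22Rv-1 shARv7. ITGA3, an integrin chain for laminin, fell by 1.46 ± 0.097 in C4-2 ARv7 and rose by 0.25 ± 0.094 in 22Rv-1 shARv7. ITGA2, the collagen-binding chain, rose in both, by 0.67 ± 0.171 and 1 ± 0.122. DDR2, a receptor kinase for fibrillar collagen, and SDC3, syndecan-3, fell by 1.47 ± 0.121 and 0.49 ± 0.0742 in C4-2 ARv7. BCAM, which binds laminin alpha 5, and SDC4, syndecan-4, rose by 1.29 ± 0.0716 and 0.96 ± 0.0987 in 22Rv-1 shARv7, and DDR1, another collagen receptor kinase, fell by 0.43 ± 0.0426.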

How the data were processed

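Libraries were read from a deposited table that holds, per gene and library, whole-number read counts and the authors' FPKM, as the file headers name them. The headers state no normalization of the counts. FPKM stands for a count divided by gene length and by library total, and the headers do not say how it was computed. Reads were trimmed with Cutadapt 2.7, per the submitters' processing notes. Those notes name the build hg18. All 75 members were found in GENCODE v29 on GRCh38 with both ends within 10000 bp, so coordinates are given as GRCh38. Which aligner and counter were used, and with what strand setting, is not given in the sources used. One line of 19974 had no gene identifier and was left out.

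Each line was fitted on its own with edgeR 4.0.16 (filterByExpr, TMM, quasi-likelihood F-test, Benjamini-Hochberg over all genes tested, threshold 0.05). The differences between lines came from a 4-group fit of all 12 libraries. SE is the log2 fold change divided by the square root of F. CPM values were TMM-normalised for each line apart. FPKM carries no TMM factor, so its ratios can differ from those of CPM. Intervals and floors (3 counts over a group) cover counting error only.

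Values in every library are given for the 12 largest called changes per comparison with a mean of at least 5 CPM, for FN1, for members at that level called in both lines, and for neighbouring pairs tested. Genes of the enzyme, receptor and other matrix lists were given by their 4 smallest adjusted p and by members that moved against the rest. The members, lists and tests were chosen with earlier results of these data known. Alternatives were DESeq2 1.42.0, its size factors, total-count scaling, no filter, a filter at a mean of 5 CPM, the replicate number as a block, all 12 libraries in one fit, limma 3.58.1 with a trend on log2(FPKM + 1) and log2(FPKM + 0.1) at a mean of at least 1 FPKM, and leaving out each library. The code of the fits was run on simulated counts with known changes. These had the same dispersion for every gene and no changes planted in the lowest genes, so they do not bear on low-count members. Promoter sequences are from RefSeq on GRCh38.p14. 56 of 75 members matched by symbol. Some genes are not reported here.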

Additional observations from a re-analysis of the deposited data

Results flagged for a closer look

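The response to the level of ARv7 differed between the lines for 19 members, by a test of the difference itself (high-minus-low ARv7 in 22Rv-1 minus the same in C4-2, log2). The share over all genes was 50.7%. The 19 are all members tested in both lines among those named for large or shared calls, so nothing is read from the count. Members that rose in C4-2 ARv7 and again in 22Rv-1 shARv7 were FN1 at -3.98, LAMA3 at -3.19, HSPG2 at -2.76, COL27A1 at -2.5, COL6A2 at -2.38, COL18A1 at -1.9, COL6A1 at -1.54, COL1A1 at -0.81 and AGRN at -0.51. For them the difference adds both rises, so it is no evidence beyond the calls in each line. Members called in 1 line were FBN1 at 5.09, TNC at 2.18, COL4A6 at 1.96, THBS1 at 0.67, COL16A1 at -1.6 and COL5A2 at -2.04. Members that moved in opposite directions, and so with or against ARv7 in both lines, differed in size: COL11A2 by 1, COL7A1 by 0.48, LAMB2 by -0.41 and SPOCK1 by 0.39.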

How the results depend on the processing

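Among alternatives, 33 of 923 values of 67 called results lost the call, in 11 results, and none changed direction. Of 25 uncalled results, 9 gained a call under some alternative, in 17 values. A mean of at least 5 CPM and the FPKM fits test fewer members, and their counts are smaller. The member counts below stand without the share over all genes under each setting, so nothing about the members is read from them. At 5 CPM, 17 were called in C4-2 (10 higher, 7 lower), 24 in 22Rv-1 (18 higher), 30 between control cells (19 higher, 11 lower), 23 between the responses as measured (13 higher) and 24 between them with the 22Rv-1 sign turned to high-minus-low ARv7 (6 higher). With limma on log2(FPKM + 1) these were 18 in C4-2 (6 lower), 20 in 22Rv-1 (14 higher), 26 between control cells (19 higher, 7 lower), 20 as measured (11 higher) and 22 with the sign turned (5 higher, 17 lower). With log2(FPKM + 0.1) they were again 18 (6 lower) and 20 (14 higher). Uncalled genes changed sign in C4-2 with total counts (TNC 0.101, LAMC1 0.0986, COL4A5 0.0171), with limma on log2(FPKM + 1) (LAMC1 0.0946, COL4A5 0.0201) or log2(FPKM + 0.1) (LAMC1 0.0983, COL4A5 0.0217), and in 22Rv-1 with total counts (COL6A6 0.0435). Leaving out 1 library turned the sign of TNC (-0.276 to 0.0813), COL23A1 (-0.0503 to 0.433) and COL4A3 (-0.449 to 0.0827) in C4-2, and of COL6A6 (-0.483 to 0.487), COL16A1 (-0.0694 to 0.346) and THBS1 (-0.00173 to 0.0724) in 22Rv-1. The cause was not tested. Leaving out a library gave 27 to 32 calls in C4-2, 35 to 39 in 22Rv-1 and 45 to 50 between control cells, and 32 to 35 and 34 to 37 between responses as measured and with the sign turned. Replicate numbers do not pair the libraries: same-numbered deviations correlated at -0.0573 to 0.0151. With the replicate block, 30 members were called in C4-2, 36 in 22Rv-1, 43 between control cells, 35 as measured and 37 with the sign turned; in 22Rv-1 AGRN and NID2 lost their calls (adjusted p 0.069 and 0.0598) and COL8A2 gained one (0.0432).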

Other observations

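Of 48 other matrix glycoproteins and proteoglycans, 17 were tested in C4-2, where 4 rose and 3 fell in C4-2 ARv7, against 29.6% and 29.5% of all genes. In 22Rv-1, 25 were tested, of which 10 rose and 3 fell in 22Rv-1 shARv7, against 23.9% and 24.1% of all genes. Their summed level was 266 to 282.6 CPM in C4-2 ARv7, against 210.7 to 254.2 CPM in C4-2 control, and 583.7 to 638.8 CPM in 22Rv-1 shARv7, against 543.8 to 576.3 CPM in 22Rv-1 shcontrol. In C4-2, FBLN2, the basement membrane protein fibulin-2, rose by 2.75 ± 0.252 on the log2 scale and LTBP4, a binding protein for latent TGF-beta, by 0.81 ± 0.0771. ELN, elastin, rose by 2.04 ± 0.43 at a mean of 1.37 CPM, and THBS4, a thrombospondin, fell by 1.13 ± 0.232. In 22Rv-1, VCAN, the large chondroitin sulfate proteoglycan versican, rose by 1.24 ± 0.15 and MATN2, matrilin-2, by 1.65 ± 0.215. LTBP3, another latent TGF-beta binding protein, rose by 0.56 ± 0.0622. FRAS1, which helps join epithelium to its basement membrane, fell by 0.76 ± 0.0642. FBLN7 and FBLN1, fibulins, fell by 0.59 ± 0.144 and 0.31 ± 0.088. These are log2 changes by edgeR ± SE at an adjusted p under 0.05.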
